A study of Homo sapiens with 4 samples.

Results

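The genes described here encode the enzymes that modify transfer RNAs (tRNAs), together with their partner subunits. They were taken as a fixed list of 44 human genes, among 19974 protein-coding genes on chromosomes 1 to 22 and X. Members were named by what their products do and not by a threshold on any value. Earlier results of these data were known when the list was chosen. A gene counted as bound when the summit of a BRD8 peak lay within 1 kb of either annotated end of the gene, which is called a gene-end peak below. BRD8 is a bromodomain protein of the TIP60 complex, which acetylates histones. It was mapped by chromatin immunoprecipitation sequencing (ChIP-seq) in HCT116 and SW480, established human colorectal cancer cell lines, which the labels list with no treatment and no genetic change. The study had 4 libraries, 1 BRD8 ChIP library and 1 input library for each line, and the peaks called in the ChIP libraries are described. Because a line is represented by 1 ChIP library, differences between HCT116 and SW480 have no replicates behind them, no test was made, and Wilson intervals on shares cover counting error within a library only.

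A tRNA carries many chemical changes that are added after transcription. Changes in and beside the anticodon tune decoding, while changes in the body of the molecule help it to fold and protect it from decay. The enzymes work in families. Methyltransferases add methyl groups to bases or to the ribose, pseudouridine synthases turn uridine into its isomer pseudouridine, the Elongator complex starts the side chain of the wobble uridine, and deaminases turn adenosine into inosine. Smaller groups reduce uridine to dihydrouridine, put sulfur on the wobble uridine, exchange guanine for queuine or, in the KEOPS complex, build threonylcarbamoyl adenosine beside the anticodon. Some members also act on other RNAs: NSUN4 and NSUN5 are known as ribosomal RNA methyltransferases, of mitochondria and of the cytosol.

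The HCT116 list held 22303 peaks and the SW480 list 12874, with median folds of 3.70 and 3.34. The fold is the authors' enrichment of the ChIP signal over the local background at the summit. A fold depends on the depth and input of its library, so genes were ranked within a line and folds of the lines are given side by side. Of 8 colon epithelial marker genes, 4 were bound in HCT116 (EPCAM, KRT8, KRT19 and CDX2) and 0 in SW480. CDH1, KRT18, CDX1 and VIL1 were bound in neither line. Of 8 markers of blood, muscle, liver and nerve 0 were bound in either line. The colon share in HCT116, 50%, lay near the 44% of all protein-coding genes bound there. In SW480 22.1% of all protein-coding genes were bound. A BRD8 peak is no measure of expression, so these counts describe occupancy at the markers only. Chromosome 7 held 14.7% of the SW480 peaks and 4.99% of the HCT116 peaks, which is given beside the members on that chromosome.

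BRD8 sat at nearly the whole set of tRNA modification genes in HCT116 and at most of it in SW480. In HCT116, 43 of 44 members had a gene-end peak (97.7%, 95% Wilson interval 88.2 to 99.6), where 44% of all protein-coding genes did. In SW480, 26 of 44 did (59.1%, 44.4 to 72.3), where 22.1% of all protein-coding genes did. The 26 SW480 genes were also bound in HCT116, and 20.3% of protein-coding genes had a peak in both lines. A peak in HCT116 alone was seen at 17 members, with a background of 23.7%, and a peak in SW480 alone at 0 members, with a background of 1.81%. ELP3 was the member with no gene-end peak in either line. When the HCT116 list was cut to the size of the SW480 list by −log10 q, 43 members still had a gene-end peak, and the share of protein-coding genes was 37.4%.

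**Figure D1:**
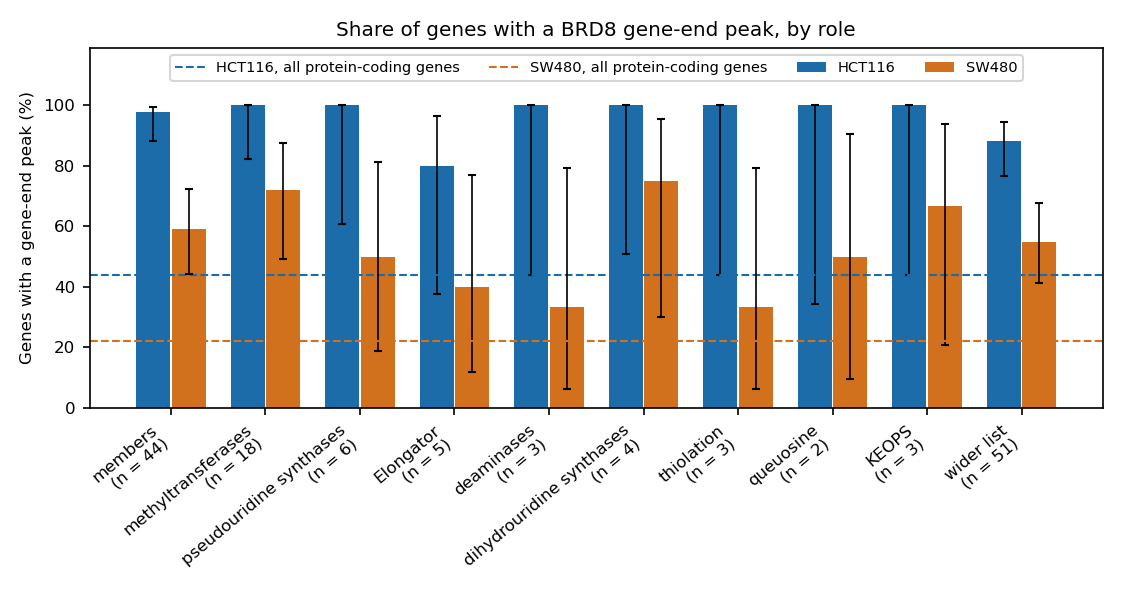
Share of genes with a BRD8 gene-end peak (%, bars) in HCT116 and SW480 for the 44 members, for each role and for the wider list of 51 other tRNA modification genes, with 95% Wilson intervals as error bars and the share of all protein-coding genes as dashed lines. Bars of HCT116 reach 100% for every role except Elongator at 80%, and SW480 bars run from 33.3% for deaminases and thiolation to 75% for dihydrouridine synthases, with intervals that overlap between roles.

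By role, the methyltransferases were bound in full in HCT116, with 18 of 18, and in SW480 with 13 of 18 (72.2%, interval 49.1 to 87.5). All 6 pseudouridine synthases had a HCT116 peak, and 3 of 6 had one in SW480 (50%, 18.8 to 81.2). Of the 5 listed Elongator subunits 4 were bound in HCT116 and 2 in SW480 (40%, 11.8 to 76.9). The 3 deaminases were all bound in HCT116 and 1 of them in SW480 (33.3%, 6.15 to 79.2). The 4 SW480 intervals overlap, which is no test of a difference. The genes of a role are few and are not replicates, so no difference between these roles is read. Of the 4 dihydrouridine synthases 4 and 3 were bound, of the 3 thiolation genes 3 and 1, of the 2 queuosine genes 2 and 1, and of the 3 KEOPS genes 3 and 2. With summits within 500 bp, 1 Elongator gene and 1 KEOPS gene were bound in SW480. Median folds of the bound genes in HCT116 were 6.57 for methyltransferases, 6.53 for pseudouridine synthases, 7.89 for Elongator and 5.85 for deaminases. In SW480 they were 4.04, 2.401, 3.82 and, at the single bound deaminase, 4.48.

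Most members lay in the upper part of the bound genes of each line. Their HCT116 folds ran from 3.58 at ADAT2 to 23.4 at METTL1 with a median of 6.43, and the median over all 8793 bound protein-coding genes was 4.87. In SW480 they ran from 2.33 at PUS7 to 7.31 at METTL1 with a median of 4.02, against 3.40 over 4415 bound genes. Of the 43 HCT116 members 37 lay in the upper 50% of bound genes by fold and 11 in the top 10%. Of the 26 SW480 members 21 and 5 did. These ranks cover bound genes only and describe the libraries.

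**Figure D2:**
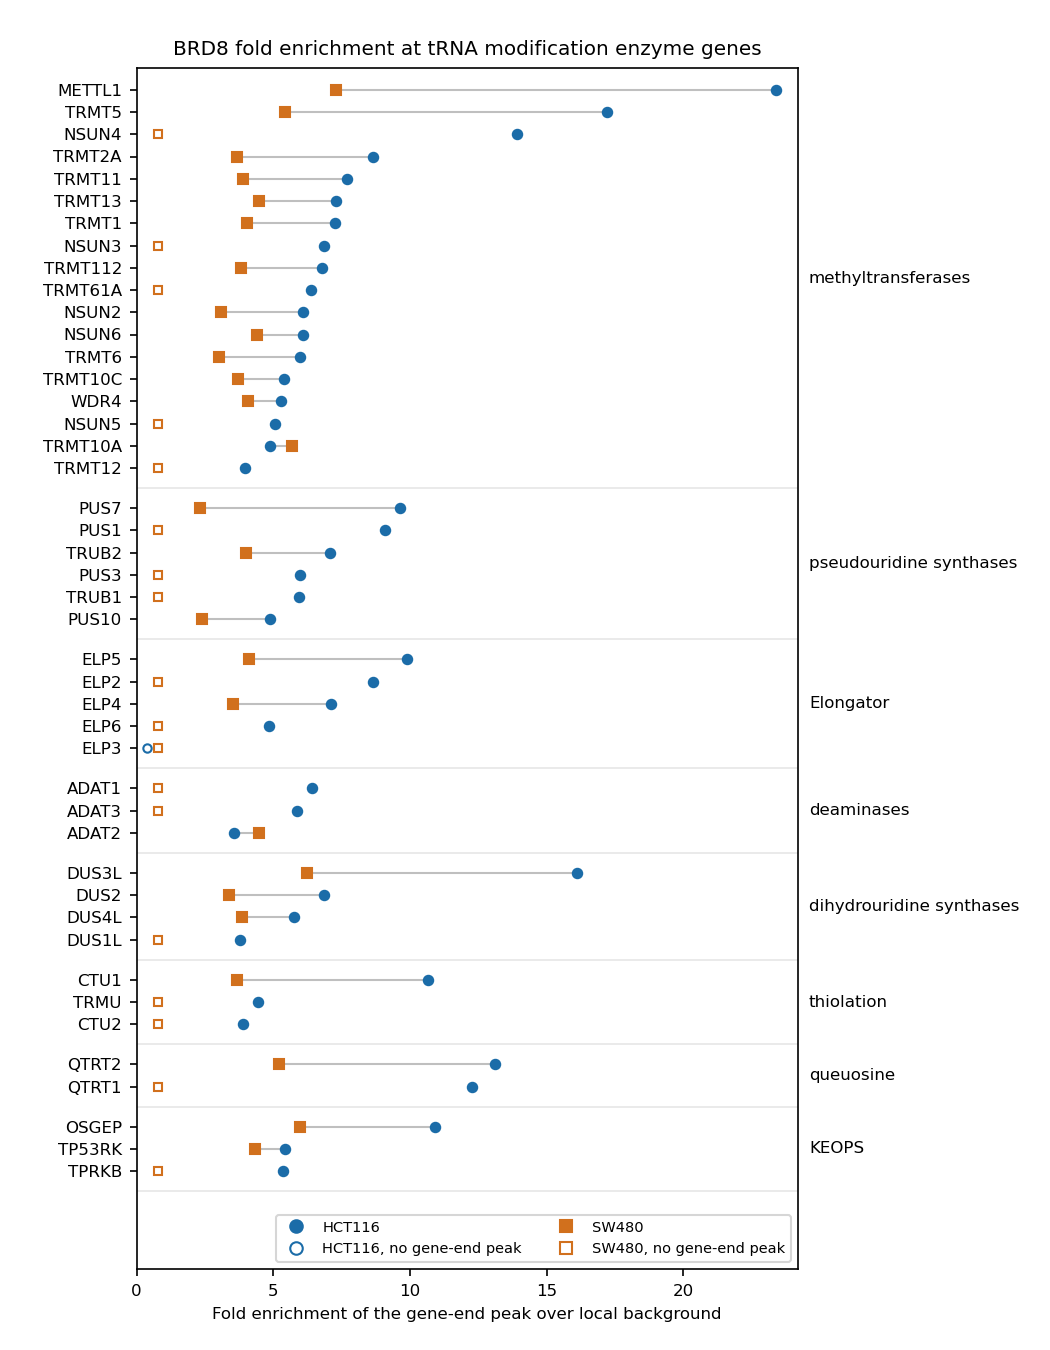
Fold enrichment of the gene-end peak (x axis, ratio to local background) of each of the 44 members in HCT116 (circles) and SW480 (squares), grouped by role, with a grey line between the lines of cells and hollow symbols near 0 for a gene with no gene-end peak, which carry no value. METTL1 is the highest member in both lines at 23.4 and 7.31, and SW480 lies above HCT116 at TRMT10A and ADAT2 only.

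The summits gathered just inside the genes. Of the 44 members, 38 have a transcription start in the RefSeq promoter table (GRCh38.p14), and METTL1, NSUN2, TRMT2A, TRMT12, ELP3 and PUS1 have no entry there. Distances are to the nearest annotated start of the same gene, negative upstream of it. Of the HCT116 summits 30 of 38 (78.9%) lay from 0 to 250 bp downstream, with a median of 130 bp and quartiles of 88.3 and 167 bp. Over all bound protein-coding genes with an entry 31.6% of summits lay in that stretch, with a median of 60 bp and quartiles of -318 and 200 bp. In SW480, 11 of 23 member summits (47.8%) lay there, against 29.2% of all. At PUS7, for example, the HCT116 summit was 174 bp and the SW480 summit 181 bp into the gene, and at TRMT13 they were 102 and 92 bp in. At TRMT10A, PUS10 and ELP5 the summits of the lines lay 19, 32 and 73 bp apart but were nearest to different annotated starts, which gives them opposite signs in the plot of summit positions.

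**Figure D3:**
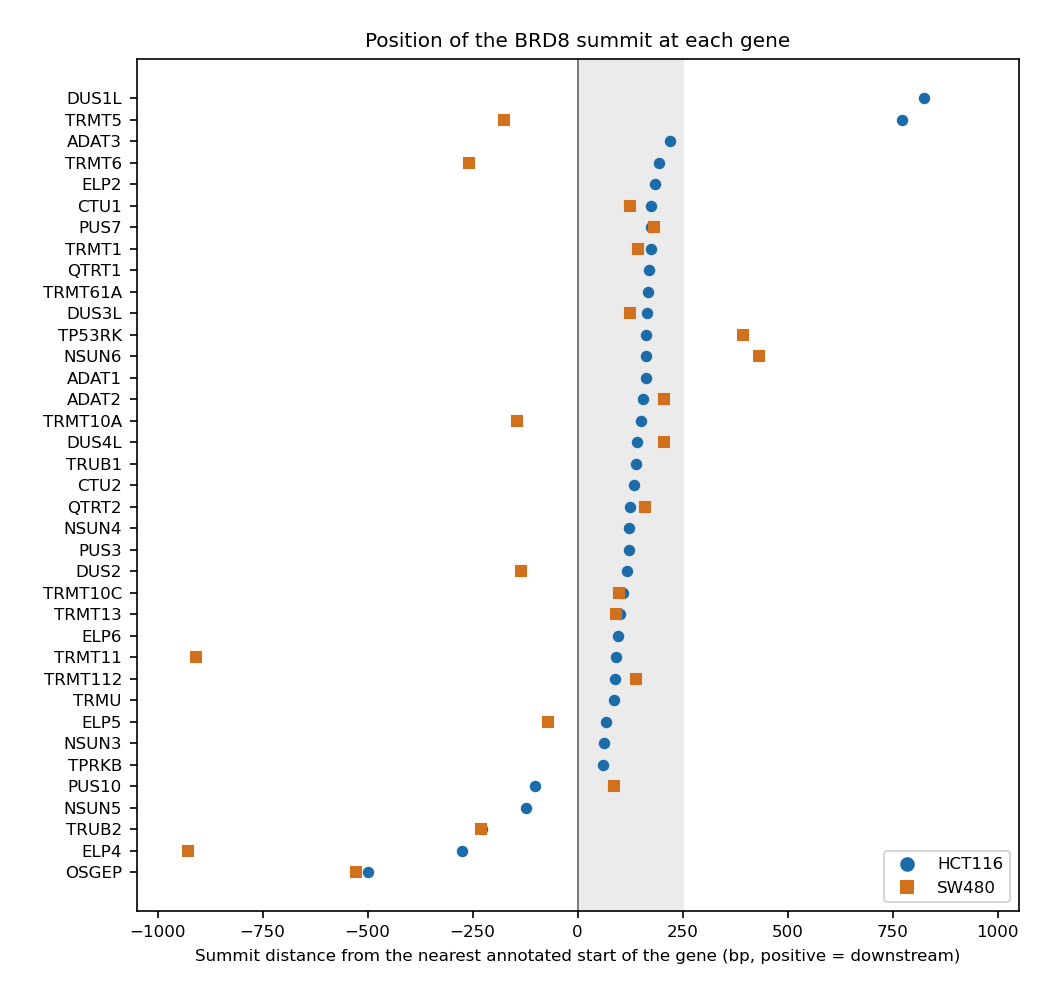
Distance of the BRD8 summit (bp, positive downstream) from the nearest annotated start of the same gene, for the 37 members with a start entry and a HCT116 summit within 1 kb of it, in HCT116 (circles) and SW480 (squares); the grey band marks 0 to 250 bp downstream. Each symbol is the peak of highest fold. HCT116 summits line up inside the band for 30 genes, and SW480 summits are more scattered, with ELP4 at -928 bp and TRMT11 at -909 bp. At these genes another SW480 peak, not drawn, lay inside the gene, at 263 bp for ELP4 and 130 bp for TRMT11.

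The promoters of the members were rich in CpG and often held the letters CCGGAAG, the core recognised by ETS transcription factors. Taking the first listed start of each gene and the window from 250 bases before to 50 after it, 34 of 38 members (89.5%) had a CpG-rich promoter (observed to expected CpG of at least 0.6 and GC of at least 50%), where 63.4% of 15812 protein-coding promoters did. The 4 others were PUS10, TRMT10A, TRUB1 and TRMT5. All 38 members were bound in HCT116. Of the 7337 protein-coding promoters of genes bound there, 6315 were CpG-rich, a share close to that of the members. Of all CpG-rich protein-coding promoters, 63.0% belonged to genes bound in HCT116 and 32.9% to genes bound in SW480, and of the other promoters 17.7% and 8.35%. On either strand, CCGGAAG was found in 16 of 38 member promoters (42.1%), in 14.2% of all promoters and in 23.1% of promoters of genes bound in HCT116. In the 250 bases before the start alone it was found in 14 members, as 24 matches. These lay from 8 to 241 bases before the start, with a median of 50. Overlapping matches on opposite strands, as at TPRKB and TRMT6, were counted separately. The nearest match is given below for 8 of the 14 members, with 20 bases on each side where the start is not reached first. Among the members not shown, the nearest match lay from 8 bases before the start at TRMT61A and TRMU to 115 at TP53RK. Sequences run 5′ to 3′ on the strand of the gene, with the match in capitals.
NSUN3, chr3:94063018-94063060, plus strand: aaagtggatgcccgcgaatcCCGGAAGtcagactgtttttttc
NSUN5, chr7:73308830-73308876, minus strand: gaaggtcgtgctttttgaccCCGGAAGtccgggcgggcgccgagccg
TRMT6, chr20:5950551-5950597, minus strand: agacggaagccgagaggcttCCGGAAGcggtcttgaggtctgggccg
TRMT10C, chr3:101561820-101561866, plus strand: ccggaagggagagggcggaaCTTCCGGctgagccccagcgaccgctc
TRMT13, chr1:100133128-100133162, plus strand: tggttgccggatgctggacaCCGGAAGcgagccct
TRUB2, chr9:128322486-128322532, minus strand: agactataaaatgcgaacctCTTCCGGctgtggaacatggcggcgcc
DUS3L, chr19:5791164-5791208, minus strand: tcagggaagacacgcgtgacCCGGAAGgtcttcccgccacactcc
TPRKB, chr2:73737346-73737383, minus strand: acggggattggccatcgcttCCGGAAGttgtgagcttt

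The letters TGACGTCA, the cyclic AMP response element (CRE), were in 4 of 38 member promoters (10.5%), in 2.59% of all promoters and in 3.60% of those of genes bound in HCT116. The places are shown in the same way, and their capitals mark the 8 letters.
ADAT1, chr16:75623282-75623319, minus strand: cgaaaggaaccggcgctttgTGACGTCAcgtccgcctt
CTU2, chr16:88706388-88706435, plus strand: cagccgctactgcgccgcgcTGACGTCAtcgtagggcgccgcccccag
DUS2, chr16:68023215-68023262, plus strand: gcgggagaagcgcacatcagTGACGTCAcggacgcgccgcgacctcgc
ELP5, chr17:7252188-7252235, plus strand: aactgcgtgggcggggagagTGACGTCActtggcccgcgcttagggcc

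Other letters were about as frequent in members as in all promoters, or rare. GGGCGG, the GC box, was in 23 of 38 (60.5%) and in 58.5% of all promoters, and CCAAT was in 12 (31.6%) and in 36.3%. CACGTG, the E-box bound by MYC and related factors, was in 4 (10.5%) and in 8.87%, AAGATGG, part of the YY1 motif, in 2 (5.26%) and in 6.40%, TATAAA in 2 (5.26%) and in 9.64%, and the palindromic NRF1 motif in 1 (2.63%) and in 1.76%. Of promoters of genes bound in HCT116, 72.3% held the GC box and 37.5% CCAAT, both above the member shares. The E-box was in 11.6% of them, AAGATGG in 8.86%, TATAAA in 5.12% and the NRF1 motif in 2.85%. All 8 motifs were read on both strands as exact letters, and matches of different motifs could overlap. A match is a string of letters and not a measured site. The 250 bases before the start are shown for 3 members among the top 10% of HCT116 folds that differ in these letters: DUS3L with 5 matches of 4 kinds, PUS7 with 3 GC boxes and TRMT5 with 0 matches. The HCT116 peak of highest fold at TRMT5 lay 772 bp into the gene, and its region did not reach the stretch shown. The weaker HCT116 peak of TRMT5, with a fold of 2.94 (−log10 q 2.51), had its summit in that stretch. All matches to the 8 motifs are in capitals.
DUS3L, chr19:5791164-5791413, minus strand: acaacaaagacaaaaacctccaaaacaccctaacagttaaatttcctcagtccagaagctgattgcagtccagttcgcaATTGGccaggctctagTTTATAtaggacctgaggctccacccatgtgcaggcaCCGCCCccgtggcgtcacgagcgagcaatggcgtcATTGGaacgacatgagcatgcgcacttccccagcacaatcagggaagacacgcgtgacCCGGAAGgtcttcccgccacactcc
PUS7, chr7:105522272-105522521, minus strand: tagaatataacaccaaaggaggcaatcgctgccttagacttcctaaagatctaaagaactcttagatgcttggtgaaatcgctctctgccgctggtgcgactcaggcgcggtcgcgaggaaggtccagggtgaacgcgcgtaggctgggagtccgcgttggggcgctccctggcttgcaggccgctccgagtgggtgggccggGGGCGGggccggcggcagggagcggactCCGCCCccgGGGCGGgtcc
TRMT5, chr14:60981691-60981940, minus strand: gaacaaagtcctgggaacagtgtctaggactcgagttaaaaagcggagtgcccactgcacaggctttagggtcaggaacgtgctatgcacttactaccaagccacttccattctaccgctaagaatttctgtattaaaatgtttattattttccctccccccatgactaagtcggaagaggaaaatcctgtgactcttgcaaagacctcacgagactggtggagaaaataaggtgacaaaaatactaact

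Many of the summits lay near an end of a neighbouring gene too. In HCT116, 25 of the 43 member summits (58.1%) lay within 1 kb of an end of another protein-coding gene, and in SW480 19 of 26 (73.1%). Over all bound protein-coding genes the shares were 32% and 34.1%. Such a summit cannot be given to either gene alone. The neighbours include genes of peroxisomes (PEX3 at ADAT2, PEX13 at PUS10), DNA replication and repair (MCM8 at TRMT6, APEX1 at OSGEP), mitochondria (NDUFV3 at WDR4, COQ4 at TRUB2, IMMP1L at ELP4) and centrioles (SASS6 at TRMT13). At 4 members with a start entry, WDR4, TRMT5, ELP4 and OSGEP, the HCT116 summit was nearer to a start of the neighbour than to the member's own. In SW480 this held for WDR4, TRMT6, ELP4, DUS2 and OSGEP. The OSGEP summits lay at -500 and -527 bp from its own start and 86 and 113 bp inside APEX1. At WDR4 the gene-end peaks (folds 5.30 and 4.08) lay at the annotated gene end beside NDUFV3, at -13383 and -13392 bp from the WDR4 start in the table. That start had peaks of its own, with folds of 12.9 in HCT116 and 4.70 in SW480, whose summits lay 602 and 208 bp from it. When a summit had to lie within 1 kb of an annotated start of the member and no nearer to another protein-coding gene's start, 36 of 38 members in HCT116 (94.7%) and 20 of 38 in SW480 (52.6%) were bound. Of all protein-coding genes with a start entry, 43.3% and 22.5% were bound under this rule, which was chosen after the data were seen.

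METTL1, on chromosome 12 (57768471 to 57772105, GRCh38), methylates guanosine in the variable loop of tRNAs and had the strongest peak of the set. In HCT116 its fold was 23.4 with a −log10 q of 160.4, from a summit pileup of 161 fragments over a local background of 5.92, and it ranked 13 among 8793 bound genes. In SW480 the fold was 7.31 with a −log10 q of 67.3, from 139 fragments over 18.2, at rank 97 of 4415. The summits lay 12 bp apart, the pileups were close to each other, and the background was 3.07 times as high in SW480. Both summits also lay within 1 kb of EEF1AKMT3, a protein lysine methyltransferase gene. WDR4, the partner that METTL1 needs, has the values given above.

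The other methyltransferases fell over a wide range. TRMT5, which methylates the guanosine next to the anticodon, lies on chromosome 14 (60971441 to 60981690) and had 2 gene-end peaks in each line. The stronger HCT116 peak had a fold of 17.2 (96 fragments over 4.63, −log10 q 84.2) and lay 772 bp into the gene and at -327 bp from SLC38A6, while the weaker one had a fold of 2.94. In SW480 the peak of highest fold had 5.45 (30 fragments over 4.69, −log10 q 11.1) and lay at -174 bp from TRMT5, and a peak with a fold of 5.20 overlapped the stronger HCT116 site. The strong site of HCT116 was thus present in SW480 with fewer fragments, 53. NSUN4, on chromosome 1 (46340807 to 46385199), had a HCT116 fold of 13.9 (73 fragments over 4.31, −log10 q 57.7) at 123 bp into the gene. It had no SW480 peak, and the nearest SW480 summit was 37.1 kb away.

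Several methyltransferases of the tRNA body had folds near the median of the set or above it. TRMT2A, which makes methyluridine in the T loop, had 8.64 and 3.68, and its HCT116 region of 4443 bp was the widest of the set, with its summit within 1 kb of RANBP1. TRMT11, which methylates guanosine together with TRMT112, had 7.70 and 3.88. TRMT112, an activator of several methyltransferases, had 6.78 and 3.83 beside PRDX5. TRMT13, a ribose methyltransferase on chromosome 1 (100133163 to 100150496), had 7.31 in HCT116 and, in SW480, 4.48 (35 fragments over 7.03, −log10 q 10.2). TRMT1, which makes dimethylguanosine, had 7.28 and 4.04.

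The adenosine methyltransferase of the tRNA body is built from TRMT6 and TRMT61A, and its genes differed in SW480. TRMT6 had folds of 5.98 and 3.03, while TRMT61A, the catalytic subunit, had 6.37 in HCT116 and no peak in SW480. NSUN2, the main cytosine methyltransferase of cytosolic tRNAs, had 6.09 and 3.10. NSUN6, another cytosine methyltransferase, on chromosome 10 (18545561 to 18659327), had 6.09 in HCT116 and, in SW480, 4.40 (30 fragments over 6.05, −log10 q 8.48) at 432 bp into the gene. NSUN3, which acts on a mitochondrial tRNA, had 6.87 in HCT116 and no SW480 peak. NSUN5 had 5.06 in HCT116 from 23 fragments over 3.75, with the narrowest HCT116 region of the set at 254 bp, and no SW480 peak.

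The TRMT10 relatives both had a lower pileup and a lower background in SW480, and only the direction of the fold differed between them. TRMT10C is a mitochondrial methyltransferase that is also a subunit of mitochondrial RNase P. It had 5.39 (57 fragments over 9.75) in HCT116 and 3.72 (22 over 5.19) in SW480. TRMT10A, which works outside mitochondria, lies on chromosome 4 (99546711 to 99564039) and had 4.89 (46 fragments over 8.61) in HCT116. In SW480 it had 5.70 (28 fragments over 4.09, −log10 q 10.99), so its SW480 fold was the higher with the lower pileup. TRMT12, listed in RefSeq as TYW2 and part of wybutosine synthesis, had the lowest methyltransferase fold of HCT116 at 3.96 and no SW480 peak.

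Among the pseudouridine synthases PUS7, on chromosome 7 (105456501 to 105522271), had the highest HCT116 fold, at 9.65 (−log10 q 39.8), and the lowest fold of all members in SW480, at 2.33 (−log10 q 8.42). Its summits lay 7 bp apart, with 64 fragments piled up in HCT116 and 86 in SW480. The local background was 5.74 and 36.3, the latter the highest of any member, so the lower fold of SW480 came with the higher pileup. TRUB2, a mitochondrial family member on chromosome 9 (128305159 to 128322447), had the highest SW480 fold of the class, 4.01 (57 fragments over 13.5, −log10 q 14.4), and 7.09 in HCT116. Its summits lay 3 bp apart, at -227 and -230 bp. PUS10 had 4.90 and 2.401.

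The other 3 pseudouridine synthases had a peak in HCT116 alone. PUS1, whose loss is known to cause a mitochondrial myopathy with anaemia, lies on chromosome 12 (131929276 to 131945896) and had 9.11 (47 fragments over 4.27, −log10 q 28.7). PUS3, on chromosome 11 (125893485 to 125903206), had 5.97 (29 fragments over 4.02, −log10 q 12.7) at 122 bp into the gene. TRUB1, on chromosome 10 (114938195 to 114977676), had 5.95 (63 fragments over 9.75, −log10 q 26.1) at 139 bp. The nearest SW480 summits were 68.6, 15.2 and 224 kb away.

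The Elongator genes split evenly among those bound in HCT116, with ELP4 and ELP5 also bound in SW480 and ELP2 and ELP6 not. ELP4, ELP5 and ELP6 form the ring of the complex, and ELP2 is a scaffold subunit that works with ELP3. ELP5, on chromosome 17 (7251724 to 7259940), had 9.89 in HCT116 (61 fragments over 5.27, −log10 q 38.8) and 4.10 in SW480 (68 over 15.8, −log10 q 17.9). ELP4 had 7.13 in HCT116 (34 over 3.91) and 3.54 in SW480 (17 over 4.09, −log10 q 3.36), where the summit lay at -928 bp. Among the peaks of highest fold of the 26 SW480 members, that ELP4 peak had the fewest fragments. Another SW480 gene-end peak of ELP4 had a fold of 2.79 (38 over 13.0, −log10 q 5.02). It lay 263 bp into the gene and overlapped the HCT116 region. ELP2, on chromosome 18 (36129899 to 36180557), had 8.65 in HCT116 (59 over 5.93, −log10 q 33.9) at 184 bp into the gene. The nearest SW480 summit was 9968 kb away, on a chromosome that held 146 SW480 and 341 HCT116 peaks. ELP6, on chromosome 3 (47495640 to 47513712), had 4.85 in HCT116 (40 over 7.46, −log10 q 13.6) at 96 bp.

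ELP3, the catalytic subunit of Elongator, is annotated on chromosome 8 from 28090232 to 28191153 and was the member without a gene-end peak. BRD8 peaks were nonetheless listed inside it. In HCT116 a peak 3058 bp from the nearest gene end had a fold of 11.6 (64 fragments over 4.59, −log10 q 45.5), higher than at the gene end of any of the other 4 listed Elongator subunits. In SW480 a peak 3069 bp from that end had 4.45 (40 fragments over 8.21, −log10 q 11.5).

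The deaminases had a peak each in HCT116 and 1 in SW480. ADAT1, which acts beside the anticodon of a tRNA for alanine, lies on chromosome 16 (75596868 to 75623281) and had 6.43 in HCT116 (46 fragments over 6.31, −log10 q 20.8) at 162 bp into the gene. ADAT3, on chromosome 19 (1905399 to 1913447), shares its start with SCAMP4 and had 5.85 in HCT116 (34 over 4.98, −log10 q 14.3). Neither had a SW480 peak. ADAT2, the catalytic partner of ADAT3 in the wobble adenosine deaminase, lies on chromosome 6 (143422832 to 143450695). It had the lowest HCT116 fold of the 43 bound members, 3.58 (56 over 14.9, −log10 q 12.8), with the highest HCT116 background of the set. In SW480 its fold was 4.48 (50 over 10.4, −log10 q 14.6), so that ADAT2 and TRMT10A were the 2 members with a higher fold in SW480.

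The dihydrouridine synthases were led by DUS3L, on chromosome 19 (5785140 to 5791163). It had 16.1 in HCT116 (120 fragments over 6.51, −log10 q 99.8) and 6.23 in SW480 (113 over 17.3, −log10 q 47.5). As at METTL1, the pileups of the lines were close and the backgrounds were not. DUS2 had 6.87 and 3.38, and DUS1L had 3.80 in HCT116 alone at 824 bp into the gene. DUS4L, on chromosome 7 beside COG5, had 5.76 and 3.86, with pileups of 51 and 123 fragments and backgrounds of 8.03 and 31.1.

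Of the genes for sulfur transfer, CTU1, on chromosome 19 (51097606 to 51108409), had 10.7 in HCT116 (77 fragments over 6.31, −log10 q 50.8) and 3.67 in SW480 (63 over 16.4, −log10 q 14.2). CTU2, its partner, had 3.91 and TRMU, the mitochondrial enzyme, 4.43, both in HCT116 alone. The tRNA-guanine transglycosylase, which inserts queuine, is made of QTRT1 and QTRT2. Both genes were among the 6 highest HCT116 folds of the members. QTRT2, on chromosome 3 (114056737 to 114088422), had 13.1 (88 over 5.79, −log10 q 65.95) and, in SW480, 5.21 (49 over 8.60, −log10 q 17.1). QTRT1, the catalytic subunit, on chromosome 19 (10701439 to 10713365), had 12.3 in HCT116 (84 over 5.93, −log10 q 60.5) at 171 bp into the gene and no SW480 summit within 47.1 kb.

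In KEOPS, OSGEP is the catalytic subunit and lies on chromosome 14 (20446401 to 20454812). It had 10.9 in HCT116 (85 fragments over 6.88, −log10 q 56.6) and 5.99 in SW480 (74 over 11.5, −log10 q 29.9). TP53RK, a kinase on chromosome 20 (46684365 to 46689444), had 5.42 in HCT116 (30 over 4.72) and 4.33 in SW480 (60 over 13.1, −log10 q 16.9). TPRKB, which binds TP53RK, had 5.35 in HCT116 alone.

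Genes of partner subunits could differ in SW480: TRMT6 was bound there and TRMT61A not, and likewise ADAT2 and not ADAT3, CTU1 and not CTU2, QTRT2 and not QTRT1, and TP53RK and not TPRKB. METTL1 and WDR4 were both bound in both lines, as were TRMT11 and TRMT112. These pairs were picked after their values were seen, and with 26 of 44 members bound in SW480 no pattern is read from them. Since the SW480 list ends at a q of 0.05, a missing peak does not show missing BRD8. The 17 members with a peak in HCT116 alone had lower HCT116 values than the 26 shared ones. Their median fold was 5.95 against 7.11, their median pileup 40 against 60.5 fragments and their median −log10 q 14.3 against 30.3. Over all protein-coding genes the median −log10 q was 7.95 for HCT116 alone and 19.4 for both. The nearest SW480 summit to the 17 was from 15.2 to 9968 kb away, with a median of 42.7 kb.

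At the 26 shared members the signal differed less between the libraries than the background did. Each line was read at its own peak of highest fold. HCT116 had a median pileup of 60.5 fragments and SW480 of 49.5. Dividing SW480 by HCT116 gene by gene gave a median of 0.824. The ratios ran from 0.313 at TRMT5, where the peaks compared do not overlap, to 2.41 at DUS4L. The median background was 7.13 and 12.2 with a ratio of 1.47, from 0.475 at TRMT10A to 6.33 at PUS7. The fold ratio had a median of 0.508, from 0.242 at PUS7 to 1.25 at ADAT2. Over all 4053 shared protein-coding genes the 3 median ratios were 0.897, 1.71 and 0.558. Between the peaks of highest fold, SW480 had the higher pileup at DUS4L, TP53RK, PUS7, TRMT112 and ELP5. It had the lower background at TRMT13, TRMT10C, TRMT10A, TRMT11 and ADAT2. At NSUN2, TRMT11, ELP4 and TRMT5 those summits lay 822, 1000, 654 and 946 bp apart, and another SW480 peak lay nearer the HCT116 summit. That nearer peak had 54 fragments over 16.8, 48 over 15.6, 38 over 13.0 and 53 over 9.38, in this order. There SW480 had the higher pileup at NSUN2 and ELP4 and the higher background at each gene. PUS7 and DUS4L, both on chromosome 7, had the highest SW480 backgrounds of the set. The part of the chromosome 7 peak excess in their values was not tested. NSUN5, the other member on chromosome 7, had no SW480 summit within 212 kb. No scaling for library coverage was applied to pileups.

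**Figure D4:**
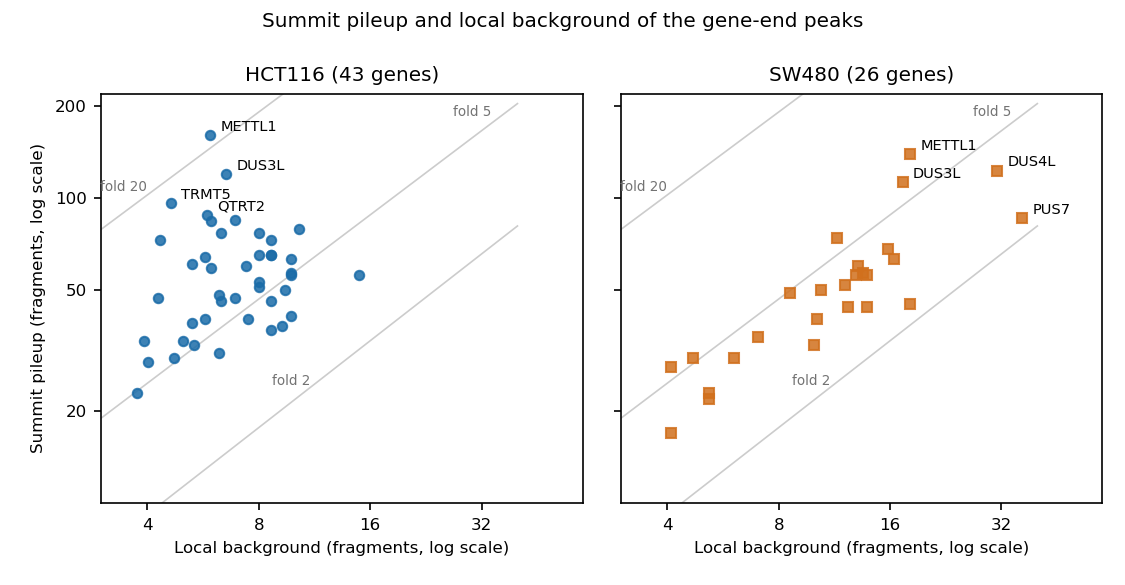
Summit pileup (fragments, log scale) against local background (fragments, log scale) of the gene-end peaks, for 43 members in HCT116 and 26 in SW480, with grey lines of equal fold. HCT116 points stay at backgrounds of 3.75 to 14.9, while SW480 points spread from 4.09 to 36.3, with PUS7 and DUS4L farthest to the right.

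Where both lines had a peak, their regions met. At 26 of 26 shared members a HCT116 gene-end region overlapped a SW480 one by at least 1 bp, against 95.5% of 4053 shared protein-coding genes. The summits of highest fold lay at most 100 bp apart at 18 of 26 (69.2%), against 53.7% over all shared genes, with a median of 45 bp. The peaks of highest fold did not themselves overlap at TRMT5 and ELP4, whose summits lay 946 and 654 bp apart, and another SW480 peak of each gene met the HCT116 region. TRMT11 had the greatest distance, 1000 bp. Its SW480 peak of highest fold (3.88, 23 fragments) was a region of 264 bp at -909 bp, and a SW480 peak with a fold of 2.96 and a region of 1455 bp lay 130 bp inside the gene. HCT116 regions were wider, with a median of 1790.5 bp at shared members and 550 bp in SW480. Over all shared protein-coding genes the medians were 1611 and 551 bp, so this held across the lists.

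The wider list of 51 other tRNA modification genes, also chosen with earlier results of these data known, gave similar counts. In HCT116 45 of 51 (88.2%, Wilson interval 76.6 to 94.5) had a gene-end peak, beside 44% of all protein-coding genes, and in SW480 28 (54.9%, 41.4 to 67.7), beside 22.1%. The 28 were all bound in HCT116, and 20.3% of all protein-coding genes were bound in both lines. The highest HCT116 folds were 12.8 at THUMPD2, 11.05 at TRDMT1, a cytosine methyltransferase of tRNA, and 10.5 at DTWD1, which modifies uridine. In SW480 they were 6.66 at LAGE3, a KEOPS subunit, 6.21 at THG1L, which adds guanosine to the tRNA for histidine, and 5.70 at PRORP, the nuclease of mitochondrial RNase P. No gene-end peak was listed for METTL2A, METTL2B, METTL8, TRMT10B, TRMT9B and TYW1.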

How the data were processed

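BRD8 ChIP-seq peak lists of HCT116 and SW480 were used, 1 per line, and the members and gene lists were chosen with earlier results of these data known. Per the labels' protocols, cells were fixed for 10 minutes in 1% formaldehyde, chromatin was cut with micrococcal nuclease, and 2 µg of antibody was used. Per the submitters' processing notes, Trimmomatic 0.33, Bowtie2 2.4.1 and MACS2 were used with GRCh38. How duplicates were handled is not stated. The deposited lists end at a q of 0.05, and their columns give the fold (a ratio of ChIP signal to local background at the summit), the −log10 p-value and −log10 q-value, a whole-number score and the summit offset, all made by the authors.

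Peaks on chromosomes 1 to 22 and X were kept, which left out 9 HCT116 and 72 SW480 peaks. Summits were set against gene ends of RefSeq GRCh38.p14, where 44 of 44 members were found, 1 by an older symbol. The peak of highest fold stood for a gene. Pileup and background were solved from the deposited fold and −log10 p-value, with 1 added to each in the fold and a relative tolerance of 0.0001, for 99.99% of HCT116 and 99.98% of SW480 peaks, and the method was tested on simulated data. The lists give no read totals. The lowest background, which follows the coverage of the whole library, was 3.75 and 4.09 fragments. Starts and sequences came from the RefSeq promoter table, with 38 members matched. By the naming rule every member is accounted for. Those of highest fold, those in 1 line alone of Elongator, pseudouridine synthases and deaminases and those without a peak have full values, with the 3 highest of the wider list per line. A further gene of that rule is not reported here. Python 3.11.15 with pandas 2.3.3, numpy 2.4.6, scipy 1.17.1 and matplotlib 3.10.9 was used.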

Additional observations from a re-analysis of the deposited data

How the results depend on the processing

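The alternatives were a −log10 q of at least 2 or 5, equal numbers of peaks, summits within 500 bp or 2 kb, overlap of the region in place of the summit, and the 5′ end alone. Under these 7 the members bound in HCT116 numbered 38 to 43 and in SW480 22 to 26, and with the 5′ end alone only the 38 members with a start entry could be counted. With summits within 500 bp, 40 members were bound in HCT116, 22 in SW480 and 21 in both, beside 34.9%, 17% and 14.1% of all protein-coding genes. At a −log10 q of at least 5 it was 43, 24 and 24, beside 36.6%, 14.5% and 13.2%. The SW480 counts of Elongator and of KEOPS genes each went from 2 to 1 with summits within 500 bp, and that of KEOPS also to 1 when a summit had to be at least as near to the own start as to another gene's. The other counts by role and of the wider list stayed within 1.5 times under these settings. The rule on the own start, and all alternatives for dihydrouridine, thiolation, queuosine and KEOPS genes, were chosen after seeing the data. Member folds changed in 6 of 62 cases with summits within 500 bp, among them TRMT5 in HCT116 (2.94) and ELP5 in HCT116 (2.58), in 2 of 61 with the 5′ end alone (both WDR4), and in 4 of 69 when the peak of highest −log10 q was taken. Overlap of at least 0.5 of the shorter region gave 26 of 26 shared members. In the 250 bases before the start alone the E-box was in 1 member, the YY1 letters in 0 and the NRF1 motif in 0. No paired analysis was possible because each line had 1 ChIP library. The lists hold no peak below their q threshold, so weaker binding was not detectable, and peaks within 1 kb of 2 genes count for both.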
